A study of Drosophila melanogaster with 8 samples.

Results

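The odorant-binding protein genes (Obp genes) of Drosophila melanogaster were examined in fly heads. Members were every gene whose FlyBase symbol is Obp followed by a digit. The annotation holds 51 such genes, of which 43 were among the 14622 identifiers of the table, and the other 8 (Obp22a, Obp50a, Obp50b, Obp50c, Obp50d, Obp51a, Obp58c and Obp58d) were not analysed here. This rule reads gene symbols only. Heads of 3-day-old males kept at 18 °C were profiled by RNA sequencing in 4 libraries of the EA mutant (strain y, sc, AdarE374A), in which the RNA editing enzyme ADAR carries a catalytically inactivating substitution on a chromosome that also carries y and sc, and in 4 libraries of WT (white Canton-S flies). Per the study's methods, the allele was made by genome editing and the line was backcrossed to white Canton-S. The EA group is 1 allele on 1 marked chromosome, so effects of lost editing and of linked or other strain sequence cannot be told apart. Nothing in the labels says that the replicates came from separate flies or cultures, so p-values measure the spread between these libraries, which may be technical. The comparison addressed which members differ in transcript level when ADAR cannot edit.

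Odorant-binding proteins are small, soluble, secreted proteins that bind hydrophobic ligands. In the antenna, support cells release them at high concentration into the lymph that bathes the dendrites of olfactory neurons, where they are known as carriers or buffers of odorants. Relatives are secreted in taste bristles, in the male reproductive tract and from fat body and glia, and much of the family lies in tandem clusters of duplicated genes. Classic members share a fixed pattern of cysteines that form disulphide bonds, Minus-C members lack some of these cysteines, Plus-C members carry additional ones, and dimer members hold a pair of such domains.

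Of the 43 members in the table, 22 lie on 2R, 12 on 3R, 6 on X, 2 on 3L and 1 on 2L. The libraries held 12517490 to 24342035 reads in EA and 9930607 to 19173154 reads in WT. Obp genes together took 0.182 to 0.287% of the reads in EA and 0.231 to 0.329% in WT, and these ranges overlap. On the first principal component of all tested genes, which held 39.1% of the variance, WT replicates 2 and 4 stood apart from the other libraries, and results that change without both are given with that value. Levels below are normalized counts, which are reads divided by 1 size factor per library.

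A filter at a mean normalized count of 10 left 29 members to test. Among these, 10 had a mean above 1000, 11 between 100 and 1000, and 8 between 10 and 100. The other 14 members had means from 0.135 to 7.73. Transcripts of a few genes made up most of the family's total: Obp19d alone held 27.3 to 33.5% of the summed normalized counts in a library, and the 5 most abundant members held 62.0 to 71.9%. Divided by exon length, the highest mean levels over all libraries were 9945 normalized counts per kb for Obp19d, 5748 for Obp83b, 3696 for Obp83a, 3498 for Obp44a, 2955 for Obp56d and 2474 for Obp56g. Replicates varied more in EA for most members. The coefficient of variation over the 4 replicates of a group was larger in EA for 23 of the 29, with a median of 24.3% in EA and 16.9% in WT. The share of all identifiers with a larger coefficient in EA was not computed. The count is therefore not shown to be particular to these genes.

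**Figure D1:**
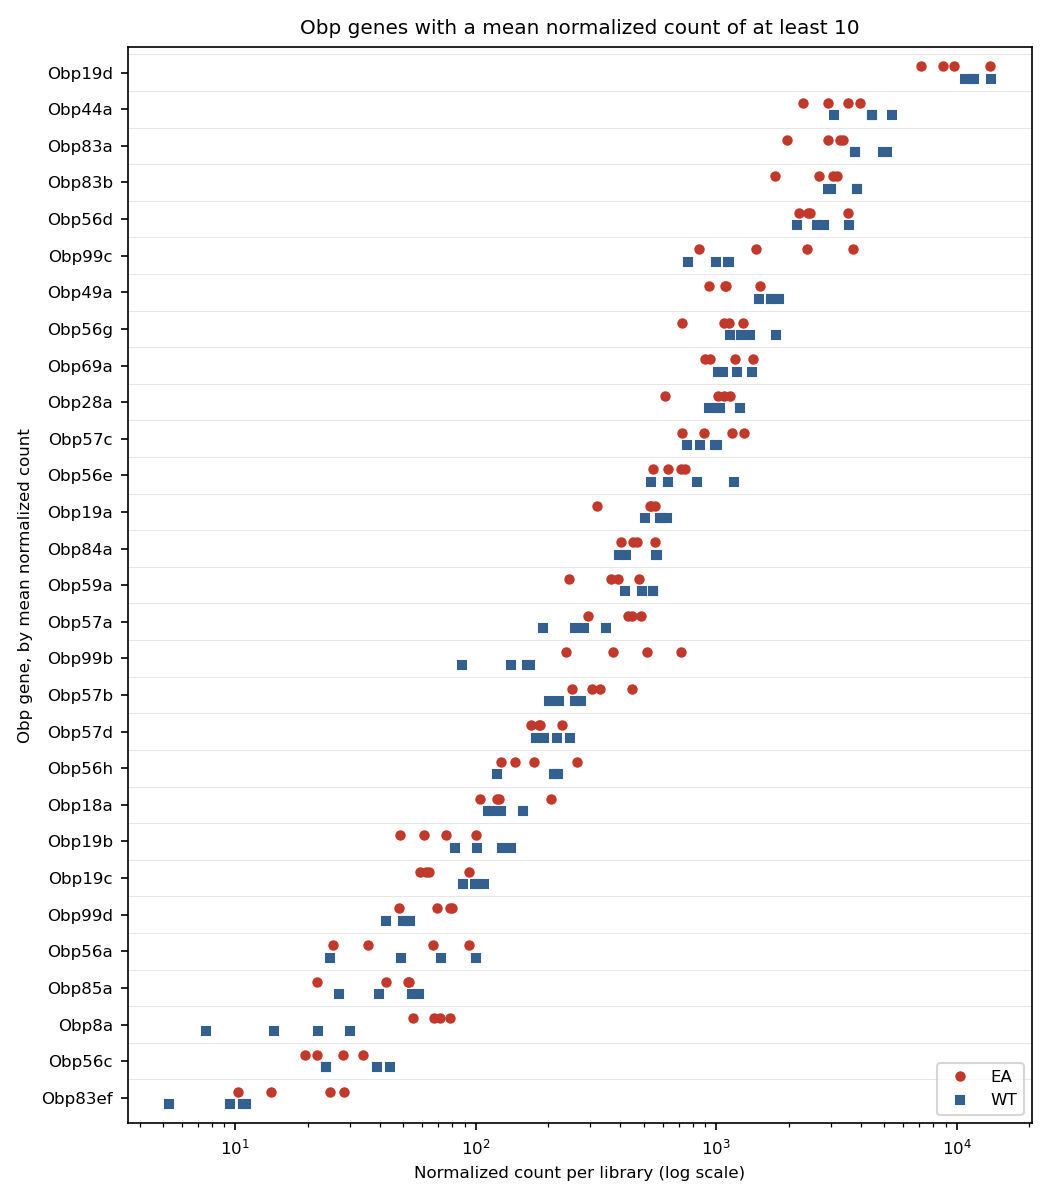
Normalized counts (log axis) of the 29 tested Obp genes in each library, with the EA libraries as circles above the WT libraries as squares in each row. The filter of 10 was on the mean over libraries, and single libraries go down to 5.29 (Obp83ef in WT replicate 1). The highest gene is Obp19d, at 7126 to 13827 in EA and 10825 to 13887 in WT. For most genes the points of both groups overlap.

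Of the 29 tested members, 1 was differentially expressed. Obp8a, a Minus-C member known from male seminal fluid, was higher in EA. This is 3.45% of the members, where 1.21% of all 10347 tested identifiers passed the same test in either direction with 0.657% higher and 0.551% lower in EA. The test was limma on log2 of the normalized count plus 1, with Benjamini-Hochberg adjustment over all identifiers and a threshold of 0.05, and fold changes below are EA over WT on that log2 scale, with SE. The EA and WT libraries did not overlap for 3 members (10.3%, where 7.99% of all identifiers did not overlap, 3.96% with EA above and 4.03% with EA below). Obp8a and Obp99b were above WT in every EA library and Obp83a was below. At an unadjusted limma p under 0.05 there were 13 members (44.8%), against 12.7% of all identifiers, with 7 of them higher and 6 lower in EA, where 7% of all identifiers were higher and 5.65% lower. Over the 29 members the log2 fold change had a median of -0.13, with 9 positive and 20 negative, and over all identifiers the median was -0.0029. Members share tissues and clusters, so they are not independent of each other.

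**Figure D2:**
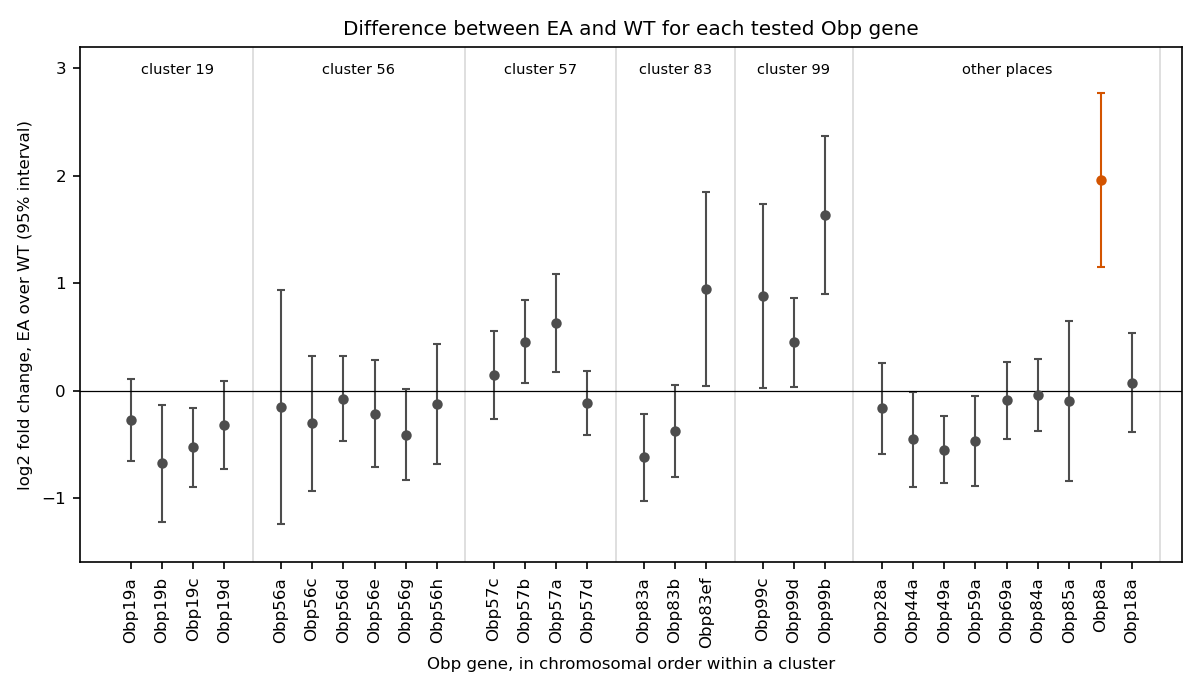
Log2 fold changes of EA over WT for the 29 tested Obp genes, grouped by chromosomal cluster and in chromosomal order within a cluster. Bars are 95% intervals from limma, and the gene with a limma adjusted p under 0.05 is in orange. Obp8a (1.96) and Obp99b (1.64) have the largest positive values, and Obp19b (-0.68), Obp83a (-0.62) and Obp49a (-0.55) the most negative.

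Obp8a (X, 9214876 to 9215699 on BDGP6.54) had 55.0, 78.2, 71.1 and 67.1 normalized counts in EA replicates 1 to 4, against 14.6, 30.0, 7.55 and 22.1 in WT replicates 1 to 4. Every EA library was above every WT library. The means were 67.9 ± 9.73 in EA and 18.6 ± 9.68 in WT (SD, n = 4 each), a ratio of 3.66. The log2 fold change was 1.96 ± 0.36, with a 95% interval of 1.15 to 2.77 and a limma adjusted p of 0.0405. The call was close to the threshold. Leaving out 1 library raised the limma adjusted p above 0.05 for EA replicate 1 (0.0896), EA replicate 2 (0.0616), EA replicate 3 (0.0675), EA replicate 4 (0.125), WT replicate 1 (0.0821) and WT replicate 4 (0.0592). Without both WT replicates 2 and 4 it was 0.0336, at a log2 fold change of 2.57. In counts of reads the gene was called by edgeR (adjusted p = 0.0298) and by DESeq2 (adjusted p = 1.90e-06). The limma adjusted p was 0.0507 without the filter on low levels and 0.0667 without a trend.

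The genes beside Obp8a on X were read from the same fit. Within 25 kb there were 10 tested neighbours, of which 1 was called. This was t, which encodes tan, the hydrolase that releases dopamine and histamine from their beta-alanine conjugates, and it lies 1956 bp from Obp8a on the X chromosome. It had 3683, 3928, 4485 and 4374 normalized counts in EA and 1806, 1718, 2035 and 2247 in WT, and its log2 fold change was 1.08 ± 0.11 (limma adjusted p = 0.00159). Between both lies CG15368, 86 bp from Obp8a, with 34.4, 31.6, 27.3 and 31.0 in EA and 7.94, 14.2, 20.5 and 9.69 in WT. For CG15368 every EA library was above every WT library, but the log2 fold change of 1.27 ± 0.30 did not pass (limma adjusted p = 0.0960). SmydA-9, 3989 bp away on the other side, was at 0.44 ± 0.18 on the log2 scale (limma adjusted p = 0.354). The other 7 neighbours ranged from -0.21 to 0.12. The part of shared position, or of reads assigned to an adjacent gene, in the Obp8a difference was not tested.

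**Figure D3:**
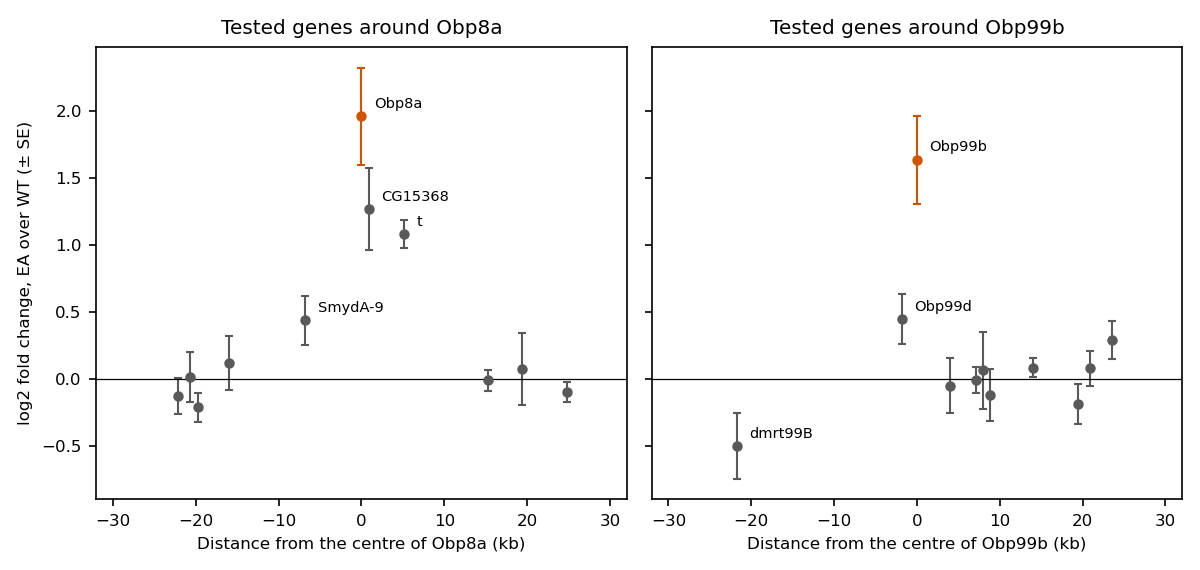
Log2 fold changes of EA over WT for the tested genes near Obp8a and Obp99b, plotted by distance in kb from the Obp gene, which is in orange. Near Obp8a the genes CG15368 (1.27) and t (1.08) are also positive, whereas none of the 10 neighbours of Obp99b passed the test. The 2 tested neighbours of Obp83a, which are not drawn, did not pass either.

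Among the members numbered 99 on 3R, Obp99b had the largest difference. Obp99b, a Minus-C gene also known as turn on sex-specificity and transcribed in male head fat cells, had 371, 236, 515 and 711 normalized counts in EA, against 168, 141, 87.4 and 164 in WT. Every EA library was above every WT library. The means were 459 ± 203 in EA and 140 ± 37.1 in WT (SD, n = 4 each), a ratio of 3.28. The log2 fold change of 1.64 ± 0.33 had a 95% interval of 0.90 to 2.37 and missed the threshold by a small margin (limma adjusted p = 0.0506). It passed without EA replicate 2 (limma adjusted p = 0.0153), in edgeR (adjusted p = 0.0474) and in DESeq2 (adjusted p = 1.41e-05). Over all alternatives its adjusted p ran from 1.41e-05 to 0.303.

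Obp99c, in the same stretch of 3R, had 1470, 850, 3711 and 2398 normalized counts in EA and 1002, 1132, 767 and 1125 in WT. Here EA replicate 2 lay within the WT range and the EA libraries differed among themselves by more than 4-fold, and the log2 fold change was 0.88 ± 0.38 (limma adjusted p = 0.381). Obp99d was a low member at 48.1 to 79.9 in EA and 42.3 to 53.3 in WT, at 0.45 ± 0.19 on the log2 scale (limma adjusted p = 0.349). Obp99a, known from the antenna, was near zero in heads, with at most 5 reads in any library.

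Several fat body markers had higher values in EA, without passing the test. A list of 7 fat body genes had 6 in the table, all of them tested, of which 5 had positive log2 fold changes (median 0.79). None passed the limma test. At an unadjusted limma p under 0.05 there were 4 (66.7%, against 12.7% of all identifiers), all higher in EA. The groups did not overlap for 2 of the 6, apolpp and Lsp2 (33.3%, against 7.99% of all identifiers). The summed level of the list, which is mostly apolpp, was 57331 to 112130 normalized counts in EA and 38589 to 51502 in WT. The main lipoprotein gene apolpp had 101035, 50807, 100231 and 94461 in EA and 40745, 43134, 32657 and 42694 in WT (log2 fold change 1.08 ± 0.22, limma adjusted p = 0.0569). The storage protein gene Lsp2 had 2878, 2220, 1543 and 5428 in EA and 384, 1187, 93.9 and 436 in WT (2.87 ± 0.67, limma adjusted p = 0.0864). The list was not uniform. The gene to, which encodes takeout, had 361 to 667 in EA and 407 to 1361 in WT (-0.68 ± 0.37, limma adjusted p = 0.501), and apoLTP, a lipid transfer particle gene, was at 0.0089 on the log2 scale. Single genes of other lists were also higher in EA. Every EA library was above every WT library for the neuron gene Syt1 (0.95 ± 0.20, limma adjusted p = 0.0557). This also held for the gut gene Amy-d (1.78 ± 0.51, limma adjusted p = 0.157). They were 1 of 4 tested neuron genes (25%) and 1 of 3 tested gut and salivary gland genes (33.3%), against 7.99% of all identifiers. In both of these lists 1 tested gene was negative. EA replicate 2 was the lowest EA library for apolpp, Obp99b and Obp99c, but also for members of other groups such as Obp49a, Obp56g and Obp57a. For 6 of the 29 tested members it was the lowest of all 8 libraries. For Lsp2 the lowest EA library was EA replicate 3 (1543). Per 1000 apolpp, Obp99b stood at 3.67, 4.65, 5.14 and 7.53 in EA and 4.12, 3.26, 2.68 and 3.84 in WT. The groups overlapped through EA replicate 1 alone, and the log2 difference of this ratio stayed positive at 0.57. On the same ratio, Obp99c and Obp99d had log2 differences of -0.20 and -0.62, also with overlap. More fat cells in a head sample and more RNA per fat cell cannot be told apart in bulk libraries, and the part of fat body content in the Obp99b difference was not tested.

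**Figure D4:**
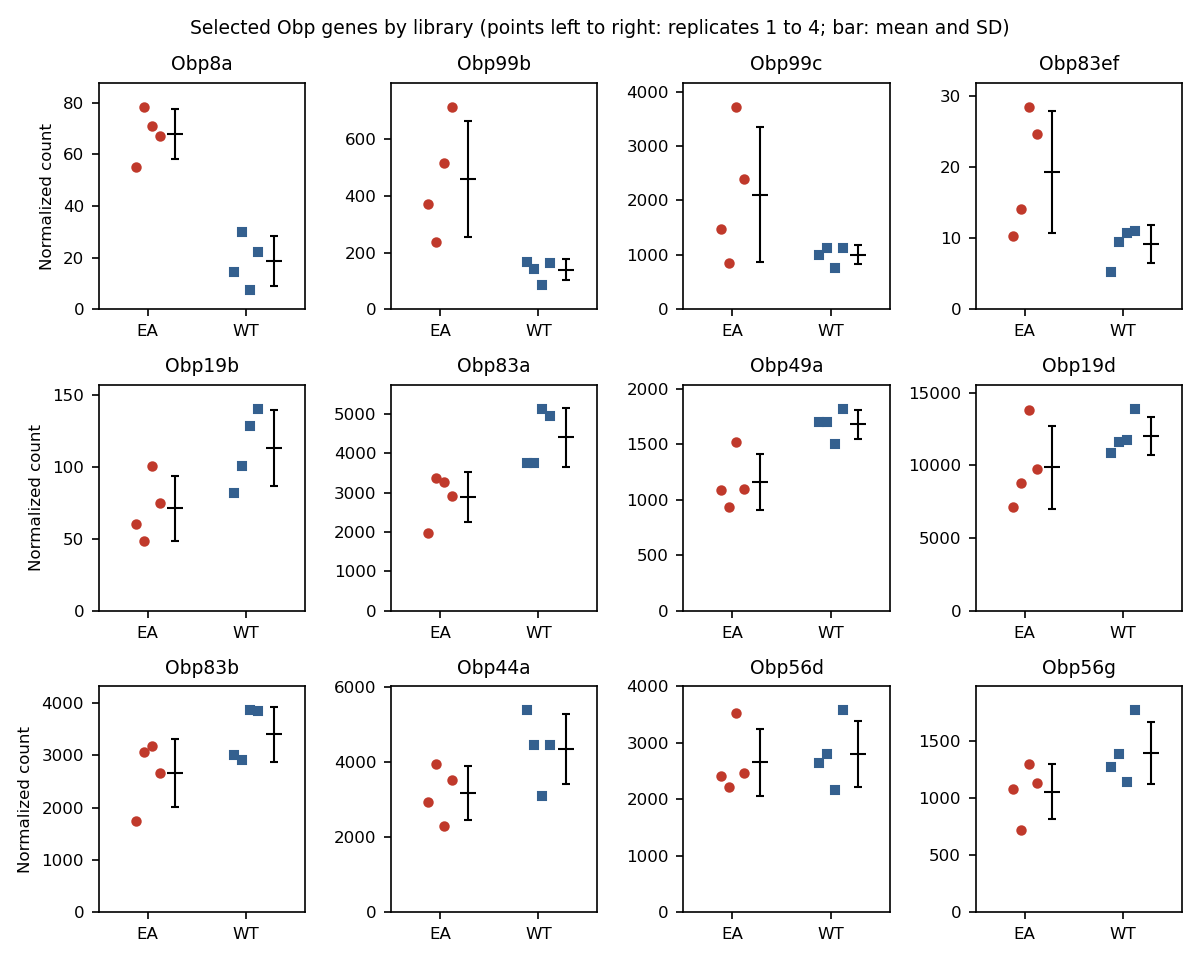
Normalized counts of 12 Obp genes, with the 4 EA replicates left of the 4 WT replicates in each panel, each in the order of replicates 1 to 4, and bars for the mean ± SD. The groups separate for Obp8a and Obp99b (EA above) and for Obp83a (EA below) and overlap in the other 9 panels.

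None of the members secreted in the antenna passed the test. Of 9 listed antennal members 8 were tested, and all 8 had negative log2 fold changes (median -0.22, and 3 of them turned positive without EA replicate 1). Obp83a and Obp59a reached an unadjusted limma p under 0.05. These are 2 of the 8 (25%), against 12.7% of all identifiers, with 5.65% lower in EA. Obp83a, an abundant protein of trichoid sensilla also named OS-F, had 1979, 3380, 3270 and 2924 normalized counts in EA and 3762, 3762, 5128 and 4952 in WT. Every EA library was below every WT library, which held for 1 of the 8 (12.5%, against 7.99% of all identifiers that did not overlap). The means were 2888 ± 637 in EA and 4401 ± 741 in WT (SD, n = 4 each). The log2 fold change of -0.62 ± 0.18 had a 95% interval of -1.03 to -0.22 and did not pass (limma adjusted p = 0.163). It was called only by DESeq2 (adjusted p = 0.0294) among the alternatives run, over which the adjusted p reached 0.429.

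Its tandem partner Obp83b (OS-E), secreted in the same sensilla, had 1752, 3057, 3187 and 2669 in EA and 3001, 2905, 3864 and 3845 in WT. For Obp83b the groups overlapped, and the log2 fold change was -0.38 ± 0.19 (limma adjusted p = 0.459). The ratio of Obp83a to Obp83b within a library was 1.13, 1.11, 1.03 and 1.10 in EA and 1.25, 1.30, 1.33 and 1.29 in WT. All EA ratios lay below all WT ratios. Both genes had their lowest level of any library in EA replicate 1. This ratio was looked at after the levels were seen, so it carries no test.

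The other antennal members differed less. Obp59a, known from humidity sensing in the antenna, was at -0.47 ± 0.19 on the log2 scale (limma adjusted p = 0.336). Obp19a and Obp28a were at -0.27 and -0.16, and Obp69a, Obp56d and Obp84a lay between -0.09 and -0.04. The gene lush, which is Obp76a under its own symbol and is needed for detection of the male pheromone, had 551, 704, 819 and 706 normalized counts in EA and 573, 665, 843 and 897 in WT (log2 fold change -0.09 ± 0.16, limma adjusted p = 0.893).

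EA replicate 1 stood low for transcripts of the antennal Obp genes. In EA replicate 1, the 8 tested antennal members stood at 0.45 to 0.86 of their WT means, and 6 of the 8 had their lowest level of all 8 libraries there. The co-receptor gene Orco, which marks olfactory neurons, was lowest in the same library, at 610, 700, 911 and 774 in EA and 762, 710, 899 and 1018 in WT (log2 fold change -0.18 ± 0.15, limma adjusted p = 0.697). A list of 9 olfactory neuron genes summed to 1317 to 1982 in EA and 1585 to 2181 in WT, and none of its 8 tested genes passed. The list was mixed, with 5 negative and 3 positive (Ir8a at 0.08, Or47b at 0.02 and Or67d at 0.68 on the log2 scale). Low genes of the list did not all stand low in EA replicate 1. Or67d was at 17.2 there and at 0 to 27.7 in WT, and Or22a, below the filter, at 10.3 there and 3.16 to 12.5 in WT. The groups did not overlap for 1 of the 8 (12.5%, against 7.99% of all identifiers). This was the low gene Or42b, at 0.879 to 10.3 in EA and 11.1 to 22.7 in WT. Set against Orco within each library, Obp83a was at 3.25, 4.83, 3.59 and 3.78 in EA and 4.94, 5.30, 5.71 and 4.86 in WT, with all EA ratios below WT. Obp59a was also lower against Orco in every EA library (0.40 to 0.52 in EA, 0.54 to 0.65 in WT), and the other 6 antennal members and lush overlapped. On this ratio the sign turned for Obp28a, Obp56d, Obp69a, Obp84a and lush, at 0.0152 to 0.14 on the log2 scale. Without EA replicate 1 the log2 fold change was -0.45 for Obp83a, -0.19 for Obp83b, -0.28 for Obp59a, -0.0832 for Obp19a and -0.0372 for Obp56d. It turned positive for Obp28a (0.0393), Obp69a (0.0043), Obp84a (0.0294) and lush (0.017). Leaving out other libraries also turned signs. Without WT replicate 4 the log2 fold change was 0.0508 for Obp56d, 0.0359 for Obp84a and 0.0076 for lush. Obp84a also turned positive without WT replicate 3 (0.0379), and Obp56d without EA replicate 2 (0.0042). The part of antennal tissue content in these differences was not tested further.

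**Figure D5:**
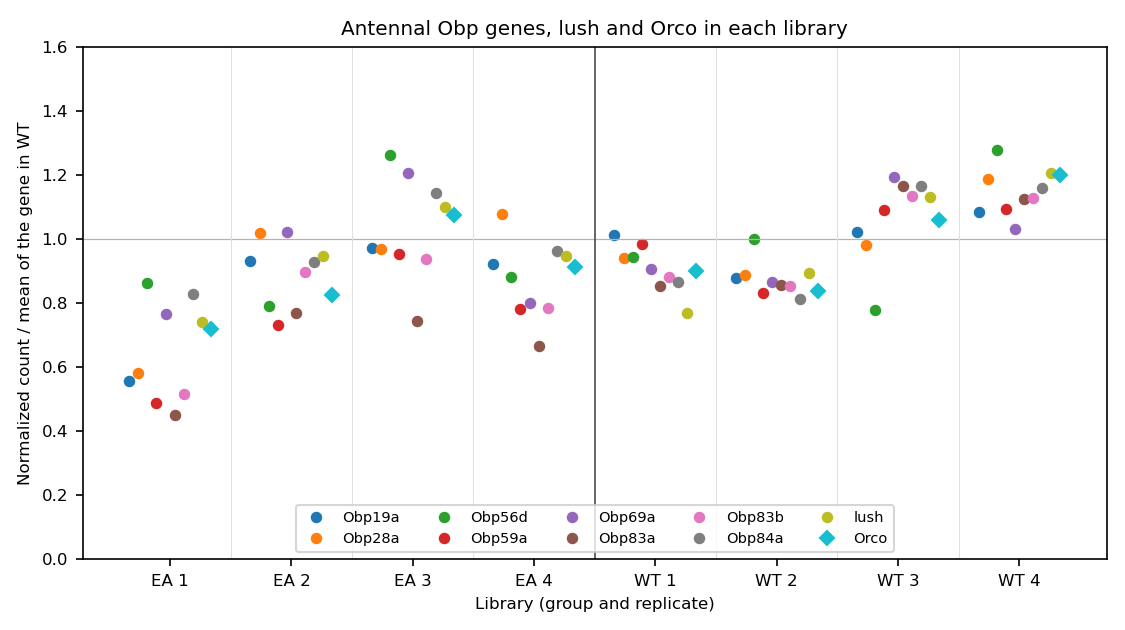
Level of the 8 tested antennal Obp genes, lush and Orco in each library, as the normalized count divided by the gene's mean over the 4 WT libraries, with the EA libraries left of the WT libraries. EA replicate 1 lies at 0.45 to 0.86 for the Obp genes, the lowest library for 6 of the 8, and at 0.72 for Orco, whereas WT replicate 4 lies at 1.03 to 1.28 for the Obp genes.

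None of the members of taste organs passed the test. Obp49a, a Plus-C protein secreted beside taste neurons that is needed for the suppression of sweet taste by bitter compounds, had 1084, 937, 1523 and 1101 normalized counts in EA and 1696, 1696, 1503 and 1818 in WT. EA replicate 3 lay just above the lowest WT library, WT replicate 3, and the other EA libraries lay below all WT libraries. Its means were 1161 ± 252 in EA and 1678 ± 130 in WT (SD, n = 4 each), and the log2 fold change of -0.55 ± 0.14 had a 95% interval of -0.86 to -0.24 (limma adjusted p = 0.112). Without EA replicate 3 the limma adjusted p was 0.0101, and DESeq2 gave 0.0176. Obp19b had 60.7, 48.3, 101 and 75.2 in EA and 82.0, 101, 128 and 140 in WT, and its log2 fold change of -0.68 ± 0.24 was the most negative of the tested members (limma adjusted p = 0.272). Obp57d, known together with Obp57e from food-plant choice, overlapped (log2 fold change -0.12, and 0.0489 without WT replicates 2 and 4), and Obp57e had at most 8 reads in any library.

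Of 7 members known from seminal fluid, 5 were in the table and 3 were tested. Beside Obp8a these were Obp56g and Obp56e, both also present outside the reproductive tract. Obp56g had 1075, 721, 1299 and 1135 normalized counts in EA and 1272, 1386, 1143 and 1768 in WT (log2 fold change -0.41 ± 0.19, limma adjusted p = 0.414), and Obp56e was at -0.22. Obp56f and Obp56i had at most 8 and 1 reads in any library. Markers of the male reproductive tract were near zero in these heads: of 4 listed genes in the table, Acp36DE reached 4.38, Acp62F 1.08 and EbpII 2.16 normalized counts at most. The exception mfas, which is expressed elsewhere too, had 2397 to 3648 in EA and 2430 to 3035 in WT.

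Within genomic clusters, taken by cytological number, tested members mostly had the same sign, but 20 of all 29 tested members were negative. Cluster 83 was mixed, with 1 positive and 2 negative. None in the clusters named 19, 56 and 57 passed the test. All 4 members of the X-linked cluster 19 were tested and all were negative (median -0.42). Obp19c in this cluster had 58.9 to 94.1 normalized counts in EA and 88.7 to 109 in WT (log2 fold change -0.53 ± 0.16, limma adjusted p = 0.190, and 0.0478 without EA replicate 3). Of the 9 members of cluster 56 on 2R, 6 were tested. All 6 were negative, at a median of -0.18, and none reached an unadjusted p of 0.05. Obp56a, Obp56c, Obp56d and Obp56h turned positive without WT replicates 2 and 4. Obp18a, alone on X, overlapped between the groups, at 104 to 206 in EA and 112 to 157 in WT. In cluster 57 on 2R, 3 of 4 tested members were positive. Obp57a had 294 to 488 in EA and 190 to 347 in WT (0.63 ± 0.20, limma adjusted p = 0.207), Obp57b was at 0.45 ± 0.17 (limma adjusted p = 0.304) and Obp57c at 0.15.

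Members were also read by structural class. Of 7 Minus-C members 5 were tested, and all 5 reached an unadjusted limma p under 0.05, with Obp8a, Obp99b, Obp99c and Obp99d higher and Obp44a lower in EA, and Obp8a alone past the adjusted threshold. At this unadjusted level 12.7% of all identifiers were counted, and Obp99b, Obp99c and Obp99d lie near each other on 3R and are not independent. Of 13 listed Plus-C members 7 were in the table and only Obp49a and Obp85a were tested. Obp85a ranged from 21.9 to 52.7 in EA and 27.0 to 58.3 in WT. Of the dimer genes, Obp83ef had 10.3, 14.1, 28.4 and 24.7 normalized counts in EA and 5.29, 9.47, 10.8 and 11.1 in WT (0.94 ± 0.40, limma adjusted p = 0.369). Obp83cd had 2.29, 6.15, 7.66 and 28.1 in EA and 5.29, 3.16, 4.32 and 4.84 in WT, below the filter, with EA replicate 4 apart from the rest. Exons of Obp83cd and Obp83ef overlap at their ends on opposite strands. The strand setting of the counting is not given in the sources used here, so reads within that overlap cannot be assigned to 1 of them. In all, 12 of the 43 members share exon positions with another gene, Obp44a with Pabp2 and Obp99c with Gycalpha99B among them, both on opposite strands. Obp57d overlaps Cpr57A and Obp73a overlaps Ogdh on the same strand, where no strand setting could separate the reads.

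The most abundant member, Obp19d, is secreted in both olfactory and taste organs. It had 7126, 8775, 13827 and 9774 normalized counts in EA and 10825, 11614, 11765 and 13887 in WT, with EA replicate 3 at the top of the WT range (log2 fold change -0.32 ± 0.18, limma adjusted p = 0.525). Obp56d, present in antennae and taste organs, had 2412, 2213, 3532 and 2463 in EA and 2636, 2798, 2171 and 3575 in WT, and the groups overlapped over nearly their whole range. Obp44a, known as a fatty acid carrier released by glia, had 2932, 3958, 2306 and 3518 in EA and 5383, 4446, 3103 and 4463 in WT (log2 fold change -0.45 ± 0.20, limma adjusted p = 0.381). Of 6 glial genes none passed the test, 3 were positive and 3 negative (median log2 fold change 0.01), and the sums were 23241 to 28264 in EA and 23256 to 26280 in WT. Among them alrm, an astrocyte gene, reached an unadjusted p under 0.05 (0.38 ± 0.14, limma adjusted p = 0.285). This is 1 of the 6 (16.7%, against 12.7% of all identifiers).

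Several members were at or near the limit of detection in heads. Obp46a, Obp47a, Obp47b, Obp50e, Obp56i and Obp93a had no more than 3 reads in any library, so they were not detectable at this depth. Obp56b had at most 6. Obp73a was listed at 2.29, 1.76, 0 and 3.44 normalized counts in EA and at 0 in all 4 WT libraries, but with at most 6 reads its level is close to this floor. Obp58b and Obp83g, at up to 15 and 16 reads, overlapped between the groups.

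No other carrier gene passed the test. Of the 6 genes lush, Os-C, a5, a10, EbpIII and Phk-3, 5 had negative log2 fold changes. Only Os-C (-0.46 ± 0.19, limma adjusted p = 0.339) reached an unadjusted p under 0.05, which is 16.7% of the 6, against 12.7% of all identifiers. Of 6 genes of sensillum neurons and their support cells, none passed, and all 6 were negative with a median of -0.20. Among them were nompA, which encodes a protein of the dendritic cap (-0.70 ± 0.20, limma adjusted p = 0.156), and the membrane protein gene Snmp2 (-0.55 ± 0.14, limma adjusted p = 0.119). Every EA library was below every WT library for nompA, 1 of the 6 (16.7%, against 7.99% of all identifiers).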

How the data were processed

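Head RNA of 3-day-old males was depleted of ribosomal RNA, although the labels also call it polyA RNA, and was sequenced as paired-end 75 bp reads per the labels. The deposited signal was a count of reads per gene, which the authors had scaled by DESeq2 size factors. The submitters' processing notes list TopHat, featureCounts, Subread, DESeq2, dm3 and BDGP5. Versions, annotation and strand setting are not given in the sources used here. The 6 deposited columns of the authors' own comparison (mean, fold change, its error, statistic and p-values) were not used. Division by the smallest step of a column gave whole reads for 100% of values (tolerance 0.001), and these served edgeR and DESeq2 only.

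Identifiers were matched to Ensembl BDGP6.54 (release 115), of which 95.9% had a symbol. This build differs from dm3, so it gave only names, positions, neighbours and exon lengths. The fit was limma 3.58.1 (R 4.3.3, lmFit, then eBayes with its trend option) on log2-transformed normalized counts with a pseudocount of 1. Only identifiers with a mean of at least 10 entered, and group was the sole term. Tests were two-sided, with Benjamini-Hochberg adjustment over 10347 identifiers. Alternatives were a pseudocount of 0.5, other filters, TMM scaling, edgeR 4.0.16, DESeq2 1.42.0, limma without a trend, a replicate block and libraries left out. Code was tested on simulated data. Each library's depth is the sum of its recovered reads. Floors of 3 reads cover counting error only.

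The members and gene lists were chosen with earlier results of these data known. Values per library were to be given for members that passed, did not overlap between groups, were among the 6 highest per kb or the 3 largest changes in each direction, and for lush. Obp99c, Obp83cd, Obp73a, other single genes and all ratios were picked after their values were seen.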

Additional observations from a re-analysis of the deposited data

Results flagged for a closer look

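In 5 of 72 groups of 4 libraries examined, 1 library lay far from the other 3 by Dixon's test at the 95% level, which chance gives in about 1 of 20 groups. Obp19a had 319.7 normalized counts in EA replicate 1 and 529 to 559 in the other EA libraries. Obp19c had 94.1 in EA replicate 3 and 58.9 to 64.2 in the others of EA. Obp56h, a member of cluster 56, had 123.0 in WT replicate 3 and 211 to 219 in the other WT libraries. The fat body gene apolpp had 50807 in EA replicate 2 and 94461 to 101035 in the other EA libraries. The share of reads in Obp genes was 0.329% in WT replicate 4 and 0.231 to 0.245% in the other WT libraries.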

How the results depend on the processing

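The count of members called was 1 with the settings used. It was 0 without a filter, 0 at a mean of at least 50 (a filter that removes Obp8a), 2 with edgeR, 4 with DESeq2, 0 with limma without a trend and 0 with the replicate block. Leaving out 1 library gave 0 to 2 calls. The members were Obp8a and Obp99b in edgeR, joined by Obp49a and Obp83a (both lower in EA) in DESeq2. Obp8a had limma adjusted p-values of 0.0507 without a filter, 0.0667 without a trend and 0.123 with the block. Over all identifiers 125 were called, against 91 without a filter, 79 at a mean of at least 50, 82 without a trend, 532 with DESeq2, 19 without WT replicates 2 and 4, 26 with the block, and 36 to 184 with 1 library left out. The replicate numbers did not pair the libraries: deviations of libraries with the same number correlated at 0.19, -0.19, -0.23 and -0.12, and not every library correlated best with its own number. Single genes gave 506 values under the other settings, of which 469 kept direction and side of the threshold, 9 lost and 7 gained the call, and 21 changed sign. Sign changed without WT replicates 2 and 4 for Obp56a (0.21), Obp56c (0.0834), Obp56d (0.13), Obp56h (0.0786) and Obp57d (0.0489). With 1 library left out it changed for Obp28a (-0.26 to 0.0393), Obp56a (-0.52 to 0.15), Obp56d (-0.22 to 0.0508), Obp56h (-0.33 to 0.0148), Obp69a (-0.21 to 0.0043), Obp84a (-0.14 to 0.0379), Obp85a (-0.31 to 0.18), Obp18a (-0.13 to 0.20) and lush (-0.21 to 0.017). Ratios, added after seeing the data, changed the sign against Orco for Obp28a (0.0152), Obp56d (0.10), Obp69a (0.0897), Obp84a (0.14) and lush (0.0901), and against apolpp for Obp99c (-0.20) and Obp99d (-0.62). None of these genes was called. The cause was not tested. With 4 libraries a group, members at a few reads had no usable precision.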
